A study of Homo sapiens with 5 samples.

Results

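HT1080 cells, a human fibrosarcoma line, carry a mutant allele of IDH1, and 9 enzymes around this gene and the tricarboxylic acid (TCA) cycle were followed here through 5 culture conditions. The members were taken by gene symbol and were IDH1, IDH2, CS, OGDH, SUCLG1, SDHA, FH, MDH1 and MDH2. All 9 were found among the 27189 genes of each library, and all 9 were among the 21163 genes with at least 1 TPM (a level corrected for transcript length and scaled to 1000000 per library) in at least 1 library. The cells had been embedded in type I collagen at 2 mg per ml for 24 h. Low density (LD) was 10 cells per cubic mm with no cytokine, and high density (HD) was 50 cells per cubic mm with no cytokine. At 10 cells per cubic mm, recombinant IL-6 (IL-6), recombinant IL-8 (IL-8), or both cytokines in a ratio of 5 to 2 (RM) were added to the other 3. The cells of every condition were of the same line at passages 15 to 18, and all 5 libraries came from 1 sequencing experiment with 1 library per condition. No condition therefore has a replicate, and no difference below can be set against a spread between cultures.

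The TCA cycle oxidises acetyl groups in the mitochondrion and returns electrons to the respiratory chain. Citrate synthase opens the cycle, and the 2-oxoglutarate dehydrogenase complex, succinyl-CoA ligase, succinate dehydrogenase, fumarate hydratase and malate dehydrogenase carry it round from 2-oxoglutarate to oxaloacetate. IDH1 works outside the mitochondrion, where it turns isocitrate into 2-oxoglutarate and makes NADPH, and IDH2 carries out the same reaction inside it. The mutant IDH1 enzyme of this cell line is known to turn 2-oxoglutarate into 2-hydroxyglutarate, which inhibits dioxygenases that use 2-oxoglutarate. Gene-level counts do not separate the mutant from the normal allele.

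Between 449661 and 1645539 reads per library lay outside the ribosomal RNA entry RNA5-8S5, which took 51.5% of the counted reads in HD and 76.9 to 79.6% in the other 4 libraries. On the 9 members together there were 1982 reads in LD, 1195 with IL-6, 1246 with IL-8, 824 with RM and 92 in HD. Intervals below are 95% exact intervals on these reads. They cover counting error only, and amplified reads without molecular identifiers are not independent molecules. The labels describe the cells both as epithelial and as connective-tissue fibrosarcoma cells, and of the 6 epithelial markers 3 or 4 were at 0 in each low-density library, EPCAM and KRT5 in all of them, while KRT19 had 132 reads in LD and 6 to 35 in the other 3 and CLDN4 had 4 to 12. The HD library stood apart. Of 7 mesenchymal markers, including VIM and FN1, none was at 0 in any library, but their summed level was 2888 TPM in HD against 7262 to 9951 TPM in the other 4. In the same library the 5 leukocyte markers summed to 209 TPM against 1.12 to 4.27 TPM elsewhere, the 3 endothelial markers to 53.8 TPM against 0.48 to 1.08, and the 6 epithelial markers to 72.2 TPM against 6.46 to 29.4. In HD only KRT5 of these 14 markers had no read, while PTPRC and CD14 had 36 and 7. In LD 9 of the 14 were at 0, and those with reads were KRT19 with 132, CLDN4 with 6, PECAM1 with 4, and LYZ and KRT14 with 2 each. The part of this in the HD values below was not tested. In bulk libraries fewer cells of a type and less RNA per cell cannot be told apart. A collagen gel without cells, also part of the study, was not analysed here.

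With both cytokines present, IDH1 was higher on TPM than in LD while CS, OGDH, SUCLG1, FH, MDH1 and MDH2 were lower. For each of these the interval of the ratio excluded equal levels. IDH1 had 23 reads in LD, 6 with IL-6, 4 with IL-8, 59 with RM and 2 in HD. In TPM this was 7.29 in LD (interval 4.62 to 10.9), 2.76 with IL-6 (1.01 to 6.01), 1.70 with IL-8 (0.46 to 4.34), 19.3 with RM (14.7 to 24.9) and 3.73 in HD (0.45 to 13.5). RM was the highest library and its interval did not overlap that of any other, whereas LD, HD, IL-6 and IL-8 followed in an order in which no neighbouring pair could be told apart at this depth. The TPM of IDH1 was 2.65 times as high with RM as in LD (interval of the ratio 1.61 to 4.50). It was 2.64 times as high in LD as with IL-6 (1.04 to 7.92) and 4.30 times as high in LD as with IL-8 (1.47 to 17.1). Each single cytokine thus went with less IDH1 than LD and the mixture with more, which these libraries show once each.

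**Figure D1:**
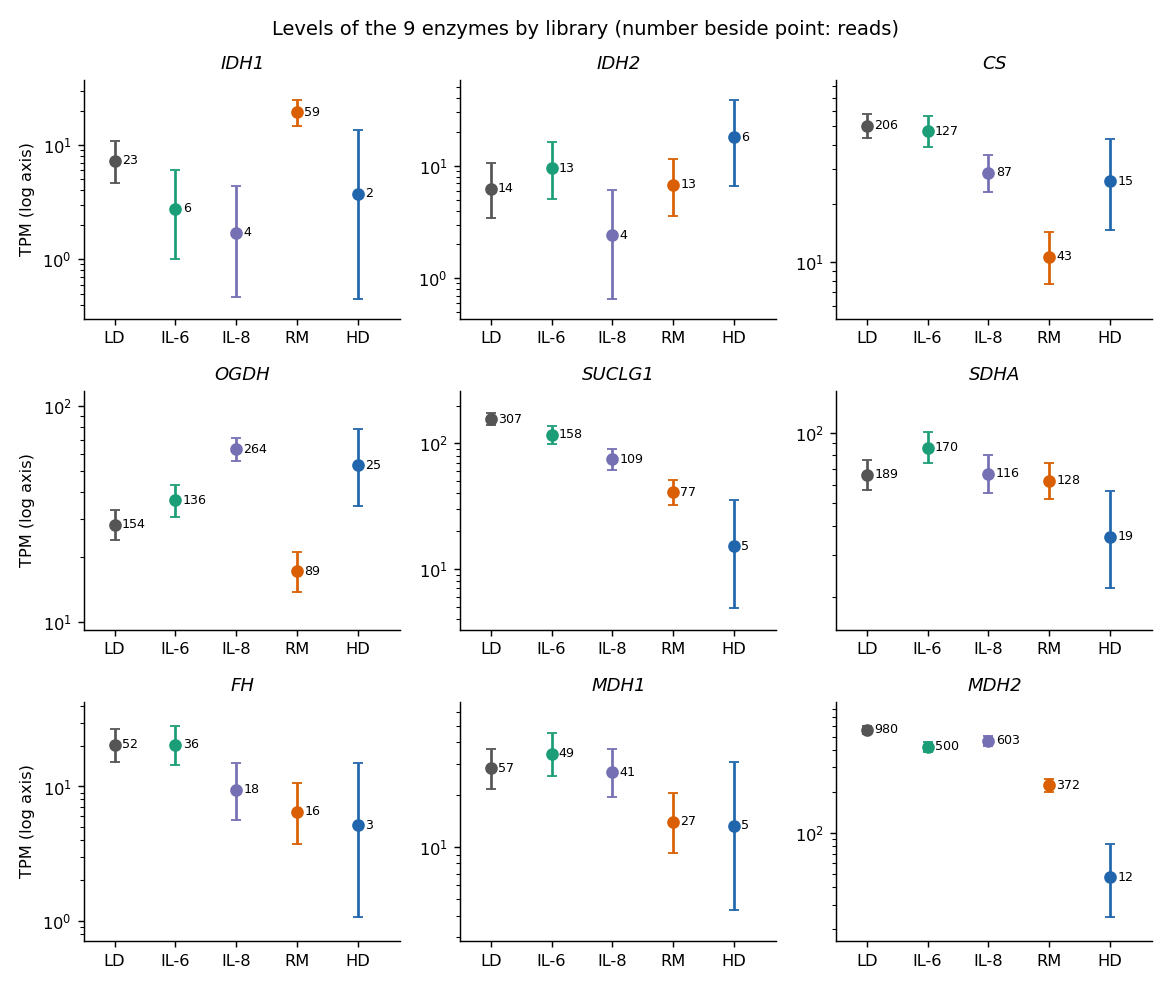
Level of each of the 9 enzymes in the 5 libraries, in TPM on a log axis whose range differs by panel, with bars for the 95% exact Poisson interval on the reads and the number of reads beside each point (1 library per condition). IDH1 is highest with RM at 19.3 TPM, while CS at 10.6 TPM, OGDH at 17.3 TPM and most other cycle enzymes are low there.

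IDH2, the mitochondrial enzyme of the same reaction, did not share this pattern. It had 14 reads in LD, 13 with IL-6, 4 with IL-8, 13 with RM and 6 in HD. Its level was 6.26 TPM in LD, 9.56 with IL-6, 2.40 with IL-8, 6.78 with RM and 17.9 in HD, and no neighbouring pair in this order was separated by its interval. The TPM of IDH1 over that of IDH2 in the same library was 1.16 in LD (0.57 to 2.44), 0.29 with IL-6 (0.09 to 0.82), 0.71 with IL-8 (0.13 to 3.79), 2.85 with RM (1.54 to 5.66) and 0.21 in HD (0.02 to 1.17). The intervals lay below 1 with IL-6 and above 1 with RM, so the cytosolic form was the rarer one in the first library and the more abundant one in the second.

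The share of IDH1 in the reads of the 9 members does not depend on how libraries are scaled to each other. It was 1.16% in LD (exact binomial interval 0.74 to 1.74%), 0.50% with IL-6 (0.18 to 1.09%) and 0.32% with IL-8 (0.09 to 0.82%). In RM it was 7.16% (5.50 to 9.14%), and in HD 2.17% on 2 of 92 reads (0.26 to 7.63%). RM stood clear of the other 3 low-density libraries, and HD was too shallow to place. The summed TPM of the 9 members was 927 in LD and 399 with RM, so lower levels of other members also raised the IDH1 share. This share was chosen once the values were known, and so was the share of the summed TPM of the members, on which IDH1 was at 0.79% in LD and 4.84% with RM.

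**Figure D2:**
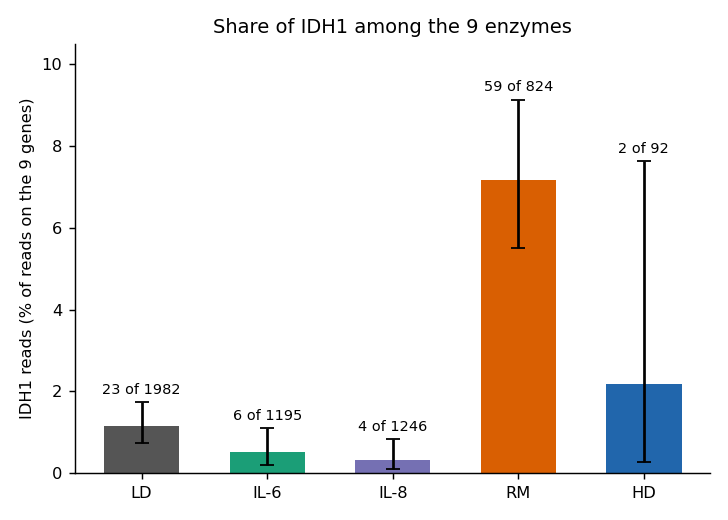
Reads on IDH1 as a percentage of the reads on all 9 enzymes in each library, with 95% exact binomial intervals and the reads above each bar (1 library per condition). The RM bar stands at 7.16% and its interval begins above the upper end of the intervals of LD, IL-6 and IL-8.

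Over all genes with at least 20 reads in every library, 1718 in number, the 5 whose centred log2(TPM + 1) profile over the 5 libraries lay nearest to that of IDH1 included BC016035, CEP164, OBSL1 and TMEM132A. Their root mean square distance from the IDH1 profile was 0.39 to 0.44 log2 units, against a median of 1.31 for all 1718. CEP164, which encodes a centriole protein, had 43.8 TPM in LD, 27.4 with IL-6, 29.0 with IL-8, 106 with RM and 32.5 in HD. Its reads were 148 in LD, 106 with IL-6, 172 with IL-8, 473 with RM and 31 in HD. With IL-8 it thus had more reads than in LD, though fewer reads lay outside RNA5-8S5 (1120609 against 1645539). Its lower level with IL-8 therefore held on TPM only. All 5 genes were highest with RM. They were picked for their likeness to IDH1, so this peak and the small distances are no separate result. The likeness rests on 5 libraries and, for IDH1, on few reads outside LD and RM. Among the other 8 members the nearest to IDH1 was SDHA, at 1.12, and the farthest was MDH2, at 1.71. Without HD, where IDH1 has 2 reads, these were IDH2 at 1.03 and CS at 1.80.

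Citrate synthase and SUCLG1 showed the largest differences with RM among the cycle enzymes, and the intervals of their ratios to LD overlapped. CS had 206 reads in LD, 127 with IL-6, 87 with IL-8, 43 with RM and 15 in HD. This gave 50.3 TPM in LD (43.7 to 57.7), 47.1 with IL-6 (39.3 to 56.1), 28.7 with IL-8 (23.0 to 35.5), 10.6 with RM (7.71 to 14.3) and 26.1 in HD (14.6 to 43.0). On TPM, LD and IL-6 could not be told apart, IL-8 was lower, and RM lay below all others. The place of RM below HD depended on the unit. On counts scaled to the reads outside RNA5-8S5, RM and HD were not separated. The ratio of HD to RM was then 1.11 (0.57 to 2.04). The TPM of CS was 4.72 times as high in LD as with RM (3.39 to 6.73) and 1.75 times as high in LD as with IL-8 (1.36 to 2.28).

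SUCLG1, the alpha subunit of succinyl-CoA ligase, had 307 reads in LD, 158 with IL-6, 109 with IL-8, 77 with RM and 5 in HD. Its level was 156 TPM in LD (139 to 175), 117 with IL-6 (99.8 to 137), 74.7 with IL-8 (61.4 to 90.1), 40.6 with RM (32.1 to 50.8) and 15.1 in HD (4.89 to 35.2). It is the single member for which every neighbouring pair of libraries was separated by the interval of its ratio. The TPM of SUCLG1 in LD was 2.09 times that with IL-8 (1.68 to 2.63), 3.85 times that with RM (2.99 to 5.01) and 10.4 times that in HD (4.40 to 32.2).

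MDH2, the mitochondrial malate dehydrogenase, was the most abundant member in the low-density libraries and carried 49.4% of the members' reads in LD. It had 980 reads in LD, 500 with IL-6, 603 with IL-8, 372 with RM and 12 in HD. In TPM this was 563 in LD (529 to 600), 423 with IL-6 (387 to 462), 469 with IL-8 (432 to 508), 222 with RM (200 to 245) and 47.4 in HD (24.5 to 82.7). The 2 single cytokines could not be told apart, RM was below both, and HD was lowest with its interval clear of the rest. LD was 2.54 times as high as RM (2.25 to 2.87) and 11.9 times as high as HD (6.78 to 23.1). In HD, MDH2 held 13.0% of the members' reads (6.93 to 21.7%).

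MDH1, the cytosolic malate dehydrogenase of the malate-aspartate shuttle, was less abundant than MDH2 in every library. Its reads were 57 in LD, 49 with IL-6, 41 with IL-8, 27 with RM and 5 in HD, and its level 28.4, 34.5, 27.0, 13.9 and 13.2 TPM in the same order. RM was separated from LD (LD over RM 2.04, 1.27 to 3.35), and HD was not separated from RM. The TPM of MDH2 over MDH1 was 19.8 in LD, 12.3 with IL-6, 17.4 with IL-8 and, for RM, 15.9, and the intervals of the highest and the lowest of these overlapped. In HD it was 3.59 (1.18 to 13.0), on 12 and 5 reads.

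FH, which hydrates fumarate to malate, had 52 reads in LD, 36 with IL-6, 18 with IL-8, 16 with RM and 3 in HD. Its level was 20.4 TPM in LD, 20.6 with IL-6, 9.47 with IL-8, 6.49 with RM and 5.12 in HD. LD and IL-6 could not be told apart, and neither could IL-8 from RM or RM from HD, but LD lay above IL-8. LD was 2.15 times as high as IL-8 (1.24 to 3.91) and 3.14 times as high as RM (1.77 to 5.90).

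SDHA, the flavoprotein subunit of succinate dehydrogenase, varied least among the low-density libraries of those members with over 100 reads in LD. It had 189 reads in LD, 170 with IL-6, 116 with IL-8, 128 with RM and 19 in HD. In TPM this was 66.2 in LD, 86.4 with IL-6, 66.7 with IL-8, 62.3 with RM and 36.01 in HD. IL-8, LD and RM could not be told apart, and HD lay below RM. The TPM assigned to each SDHA read, relative to SUCLG1 in the same library, was 0.69 in LD and 0.92 with RM, so on CPM outside RNA5-8S5 (counts scaled to 1000000 without that entry) the ratio of RM to LD was 0.78 (0.62 to 0.98) and on TPM it was 0.94 (0.75 to 1.18). The near-identical pseudogenes SDHAP1, SDHAP2 and SDHAP3 had at most 4 reads each in the low-density libraries but 3, 16 and 8 in HD, so the HD value of SDHA is uncertain. The antisense gene IDH1-AS1 had no read in any low-density library and 1 in HD.

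OGDH, the substrate-binding E1 component of the 2-oxoglutarate dehydrogenase complex, was the member that was higher with IL-8. It had 154 reads in LD, 136 with IL-6, 264 with IL-8, 89 with RM and 25 in HD. Its level was 28.3 TPM in LD (24.0 to 33.1), 36.7 with IL-6 (30.8 to 43.4), 63.2 with IL-8 (55.8 to 71.3), 17.3 with RM (13.9 to 21.2) and 53.2 in HD (34.5 to 78.6). IL-8 was 2.23 times as high as LD (1.82 to 2.74), and RM, which also held IL-8, was the lowest of the 5 on TPM but not on CPM outside RNA5-8S5, where HD was at 55.6 and RM at 62.0. For HD the direction depended on the unit. Each OGDH read was worth 0.71 of a SUCLG1 read in TPM in HD against 0.35 to 0.37 in the other 4 libraries, and the ratio of HD to LD was 1.88 on TPM (1.18 to 2.88) but 0.59 on CPM outside RNA5-8S5 (0.37 to 0.91). In IL-8 no such gap was seen, and the ratio to LD was 2.52 on CPM outside RNA5-8S5.

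Counting differences of at least 1 on the log2(TPM + 1) scale, a scale that understates changes of low genes, sets the members beside all 21163 genes. The comparisons with LD share that library. With IL-6, 0 of the 9 members were higher and 1, IDH1, was lower, against 9.84% of all genes higher and 7.47% lower. With IL-8, 1 was higher (OGDH) and 4 were lower (IDH1, IDH2, SUCLG1 and FH), against 7.99% and 16.4% of all genes. With RM, 1 was higher (IDH1) and 4 were lower (CS, SUCLG1, FH and MDH2), against 6.44% and 20.4%. For the members the median difference was 0.01 with IL-6, -0.79 with IL-8, and for RM it was -0.98, and that of all genes was 0.00 in each. The low direction was common among well-counted genes. Among the 9301 genes with a mean of at least 10 reads over the libraries, a filter added after the values had been seen, 30.1% were lower and 9.11% higher with RM, with a median of -0.49. With IL-8, 22.7% of the 9301 were lower and 10.1% higher, with a median of -0.33.

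**Figure D3:**
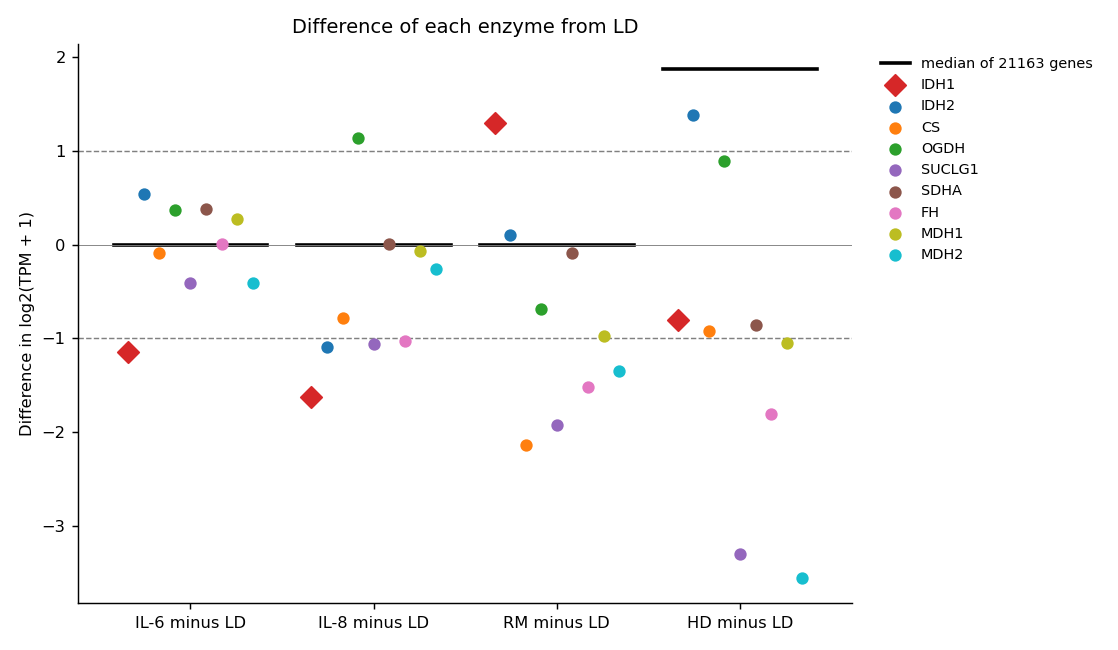
Difference of each of the 9 enzymes from LD on the log2(TPM + 1) scale, by comparison, with IDH1 as a diamond, dashed lines at 1 and -1 and a black bar at the median of all 21163 genes (1 library per condition). IDH1 is the lowest member with IL-6 and with IL-8 and the highest with RM, and in HD the bar at 1.86 holds genes counted by few reads, against a median of -0.08 over the 9301 well-counted genes.

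IDH1 lay above LD with RM under every pseudocount and scaling tried, by 0.98 to 1.83 log2 units, and it missed the threshold only with a pseudocount of 5. CS and SUCLG1 stayed at least 1 log2 unit lower with RM under every pseudocount and scaling. With median-ratio or TMM scaling, FH and MDH2 were lower with RM by 0.59 to 0.91 and MDH1 by 0.24 to 0.40, and OGDH and SDHA came to lie between -0.16 and 0.23. These scalings also turned the split of all genes past the threshold with RM from 24.0% higher to 57.8% and 46.9% higher, and with IL-8 from 32.8% to 58.1% and 49.1%. In IL-8 they moved MDH1 to 0.38 and 0.26 and MDH2 to 0.20 and 0.06, both below 0 in TPM.

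Between HD and LD, 1 member was higher (IDH2) and 4 were lower (SUCLG1, FH, MDH1 and MDH2), against 61.9% of all genes higher and 17.9% lower. The difference was 1.38 for IDH2, -3.29 for SUCLG1, -1.81 for FH, -1.05 for MDH1 and -3.54 for MDH2. The ratio of HD to LD was 2.85 for IDH2 on 6 reads in HD (0.90 to 7.90) and 0.46 for MDH1 on 5 (0.15 to 1.15), and both intervals hold 1. The median of all genes was itself 1.86 higher in HD, and that of the members was -0.92. The filter admits genes through a few reads in HD alone, and in the 9301 well-counted genes 35.2% were higher and 34.5% lower, with a median of -0.08. IDH2 and OGDH lay above this second median and the other 7 members below it. Only MDH2 and SUCLG1 were in the lowest 3% of all genes, and 2.60% of all genes had a difference as low as that of SUCLG1. IDH1 rests on 2 reads in HD and differed by -0.81, with a ratio to LD of 0.51 that its reads place between 0.06 and 2.07.

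The level of IDH1 separated RM from HD and was 5.17 times as high with RM (1.37 to 43.7). Of the 9 members, 3 were higher in HD than with RM (IDH2, CS and OGDH) and 3 were lower (IDH1, SUCLG1 and MDH2), against 67.5% of all genes higher and 13.6% lower. The median of the members was -0.29 and that of all genes 2.18. With CPM outside RNA5-8S5 in place of TPM, none of the 9 was at least 1 log2 unit higher in HD than with RM.

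Because IDH1 lay opposite to CS, SUCLG1 and MDH2 with RM, the bases just upstream of these 4 genes are shown. They are taken from the RefSeq table for GRCh38.p14, matched by symbol, while the submitters' processing notes name GRCh37 and hg19. Each is the 250 bases before an annotated start (for IDH1 the more upstream of 2 listed), on the strand of the gene and 5′ to 3′. Capitals mark GGGCGG, the core of a GC box, or CCAAT, each on either strand.

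IDH1 (chr2:208255072-208255321, minus strand): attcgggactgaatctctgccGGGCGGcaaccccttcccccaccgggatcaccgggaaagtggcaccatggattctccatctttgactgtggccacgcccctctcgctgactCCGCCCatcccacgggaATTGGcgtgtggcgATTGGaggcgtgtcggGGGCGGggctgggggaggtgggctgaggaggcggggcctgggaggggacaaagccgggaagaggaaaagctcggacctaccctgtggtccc

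CS (chr12:56300331-56300580, minus strand): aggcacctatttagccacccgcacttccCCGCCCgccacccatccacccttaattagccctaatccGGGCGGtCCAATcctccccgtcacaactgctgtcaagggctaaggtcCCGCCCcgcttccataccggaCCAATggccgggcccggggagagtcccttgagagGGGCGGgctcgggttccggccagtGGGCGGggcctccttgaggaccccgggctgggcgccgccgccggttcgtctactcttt

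SUCLG1 (chr2:84459281-84459530, minus strand): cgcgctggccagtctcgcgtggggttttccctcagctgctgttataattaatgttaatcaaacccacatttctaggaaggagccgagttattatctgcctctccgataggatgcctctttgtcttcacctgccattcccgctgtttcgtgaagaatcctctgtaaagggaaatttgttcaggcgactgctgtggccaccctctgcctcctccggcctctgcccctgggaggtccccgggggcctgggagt

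MDH2 (chr7:76047856-76048105, plus strand): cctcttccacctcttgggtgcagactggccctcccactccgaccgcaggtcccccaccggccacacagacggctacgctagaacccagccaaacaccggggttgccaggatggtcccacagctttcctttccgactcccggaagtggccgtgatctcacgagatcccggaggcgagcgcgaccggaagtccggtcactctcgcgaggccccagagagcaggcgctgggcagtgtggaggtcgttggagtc

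The IDH1 window held 3 matches to GGGCGG and 2 to CCAAT, and the CS window held 5 and 2. The SUCLG1 and MDH2 windows held neither. Over all 35116 upstream windows of the table, 42.6% held GGGCGG and 32.0% held CCAAT. The motif of NRF1, an activator of genes for mitochondrial proteins, was searched too and was found 4 times upstream of SDHA, in none of these 4 windows, and in 5.07% of all windows. Matches to letters are a description and were not tied to the RNA levels. The other listed IDH1 window (chr2:208254459-208254708) held 1 match to GGGCGG and 0 to CCAAT.

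The remaining 11 genes of the cycle, listed by function, were all measured. In RM none was at least 1 log2 unit higher than in LD and 3 were lower, with a median of -0.31. For this and the following lists, the shares of all genes with RM are 6.44% higher and 20.4% lower. In HD they are 61.9% higher and 17.9% lower. Among the 9301 well-counted genes the shares are 9.11% higher and 30.1% lower with RM, and 35.2% and 34.5% in HD. A count near those shares is not particular to a list. The 3 included SDHB, the iron-sulphur subunit of succinate dehydrogenase, and SUCLG2, a partner subunit of SUCLG1. SDHB was at 38.5 TPM in LD and 13.0 with RM, and SUCLG2 at 13.9 and 5.41. IDH3G, a subunit of the NAD-linked isocitrate dehydrogenase, lay the other way, at 145 TPM in LD, 228 with IL-6, 352 with IL-8 and, for RM, 224. In HD, 1 of the 11 was higher than in LD and 3 were lower (IDH3G, SUCLG2 and IDH3A, the last of these named after its value was seen).

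Of 13 genes that bring pyruvate into the cycle, none was higher with RM and 5 were lower, with a median of -0.28. PC, the carboxylase that makes oxaloacetate from pyruvate, had 72 reads in LD, 29 with IL-6, 11 with IL-8, 1 with RM and 1 in HD. Its level was 12.9 TPM in LD, 0.18 with RM and 1.06 in HD. PDP1, a phosphatase that activates pyruvate dehydrogenase, was at 10.1 TPM in LD and 1.76 with RM, and DLAT, the E2 component of the pyruvate dehydrogenase complex, at 6.49 and 1.22. In HD 7 of the 13 were higher, against 61.9% of all genes and 35.2% of the well-counted genes. Among the 7 were PDP2, with 83 reads against 51 in LD, and MPC2, a subunit of the pyruvate carrier. MPC2 had 41 reads against 67 in LD, a level of 80.9 TPM in HD.

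Among 15 genes that feed or drain the cycle, none was higher with RM and 3 were lower, near the 20.4% of all genes, with a median of -0.73. They included GOT2, the mitochondrial aspartate aminotransferase, at 113 TPM in LD and 26.6 with RM, and SLC25A13, an aspartate-glutamate carrier, at 6.99 and 1.93. In HD 7 were lower and 3 higher. The citrate carrier SLC25A1 had 479 reads in LD and 4 in HD, the citrate-cleaving enzyme ACLY 988 and 14, and PCK2 132 and 2. HD was the shallower library, and in TPM these were 230 and 11.7, 176 and 13.6, and 44.0 and 2.56.

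Of 15 genes for 2-hydroxyglutarate removal and dioxygenases that use 2-oxoglutarate, 2 were higher with RM and 5 lower, with a median of 0.00. The higher ones, named after their values were seen, were the histone demethylase KDM4B, at 22.4 TPM in LD and 57.0 with RM, and the DNA repair enzyme ALKBH2, at 32.1 and 83.1. KDM4A was at 4.87 TPM in LD and 0.33 with RM on 31 and 2 reads, and EGLN2, a prolyl hydroxylase, at 96.7 and 34.5. In HD 9 of the 15 were higher, against 61.9% of all genes and 35.2% of the well-counted genes, and 2 were lower. EGLN1 was at 23.1 TPM in HD against 5.09 in LD.

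Among 5 other sources of NADPH, the cofactor that normal IDH1 makes, none was higher with RM and 1 was lower, MTHFD1, at 20.3 TPM in LD and 5.25 with RM. PGD, an NADPH-making enzyme of the pentose phosphate pathway, did not order the low-density libraries as IDH1 did, with 132 TPM in LD, 61.5 with IL-6, 49.5 with IL-8 and, for RM, 77.6. In HD 3 of the 5 were lower and none higher. Of 3 assembly factors of succinate dehydrogenase that passed the filter, all were lower with RM, and SDHAF2 was at 71.5 TPM in LD and 18.6 with RM, while in HD 1 was higher and 1 lower. The other 2 rest on few reads, SDHAF1 on 10 in LD and 2 with RM and SDHAF3 on 6 and 0. The fourth listed factor had no read in any library.

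**Figure D4:**
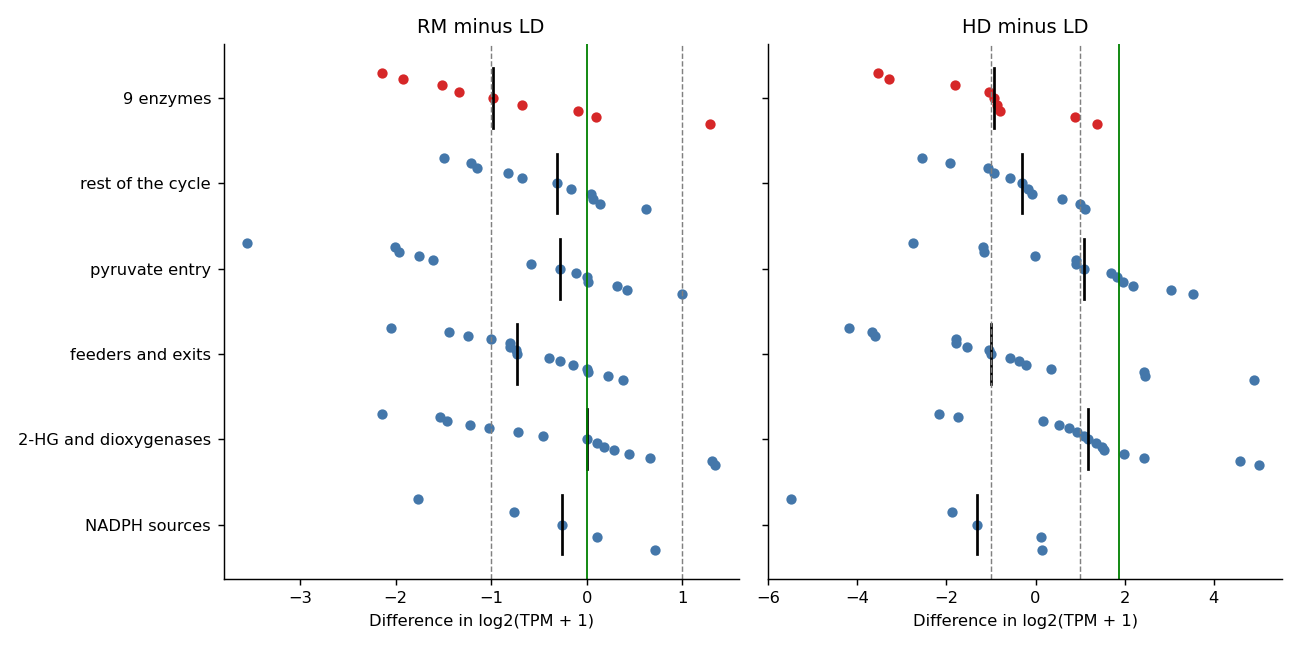
Difference from LD on the log2(TPM + 1) scale of each measured gene in the list of 9 enzymes (red) and in 5 lists of related genes (blue), for RM on the left and HD on the right, with a black bar at the median of each list, a green line at the median of all genes and dashed lines at 1 and -1 (1 library per condition). IDH1 at 1.29 is the one enzyme of the 9 past the upper line with RM.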

How the data were processed

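RNA-seq libraries of HT1080 cells in collagen, 1 per condition, were analysed. Messenger RNA had been primed on poly-A, amplified as a whole cDNA pool and tagmented. The authors aligned reads with Bowtie2 (2.3.1 in the submitters' processing notes) and estimated gene levels with RSEM (1.2.25), and the notes name GRCh37 and hg19. Annotation and settings are not given in the sources used here. The authors deposited estimated counts per gene, in whole numbers without normalization, and a TPM value per gene. TPM was rescaled to 1000000 per library, since deposited rows summed to 934821 to 978521.

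Differences were taken as log2(TPM + 1) over the 21163 genes that reached 1 TPM in any library, and 1 log2 unit counted as a difference. With 1 library per condition no test between conditions is possible, so none was made. Reads have exact Poisson intervals, shares exact binomial intervals, and ratios of 2 libraries exact conditional intervals (95%, 45 member ratios, not adjusted for their number). The members and lists were chosen with earlier results of these data known. Genes named outside the members were the 3 with the largest difference from LD in RM and in HD in each list, with at least 20 reads in LD, near-identical copies of members, and the 5 with profiles nearest to IDH1. Some of these genes are not reported here. Of 102 listed symbols, 100 were found, 3 under an older name or synonym, and the other 2 were not analysed here. Alternatives were pseudocounts of 0.1 and 5, CPM with and without RNA5-8S5, median-ratio and TMM (edgeR 4.0.16) scaling, a threshold of 2 and other filters. The scripts were tested on simulated counts. Python 3.11.15, pandas 2.3.3, scipy 1.17.1 and R 4.3.3 were used.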

Additional observations from a re-analysis of the deposited data

How the results depend on the processing

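No paired analysis was possible because each condition has 1 library, and leaving out a replicate was not possible for the same reason. Of 270 recomputed log2 differences of single members, 234 stayed within the counting interval of the reported value, and the sign changed in 26, of which 20 had a reported difference under 1. Among these, OGDH between HD and LD went from 0.89 to -0.74 with CPM outside RNA5-8S5, -0.51 with median-ratio and -1.25 with TMM scaling. The 6 with a reported difference of at least 1 compare HD with RM. OGDH came to -0.16 with CPM outside RNA5-8S5, -0.52 with median-ratio and -1.09 with TMM scaling, CS to -0.21 and -0.75 with the last 2, and IDH2 to -0.33 with TMM. The cause was not tested.

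The number of members lower with IL-6 was 1 and became 0 with a pseudocount of 5, CPM over all reads, median-ratio, TMM or a threshold of 2. With IL-8, 4 lower became 1 with a pseudocount of 5 and with TMM, 2 with either CPM, and 0 with median-ratio or a threshold of 2, and the 1 higher became 0 at that threshold alone. With RM, 4 lower became 5 with a pseudocount of 0.1, 2 with median-ratio and TMM and 1 with a threshold of 2. The 1 higher became 0 with a pseudocount of 5 and with a threshold of 2. Between HD and LD, 4 lower became 3 with a pseudocount of 5 and 2 with CPM over all reads and with a threshold of 2. This count was 7 with CPM outside RNA5-8S5, 6 with median-ratio and 8 with TMM. The 1 higher became 0 with CPM outside RNA5-8S5, median-ratio, TMM and a threshold of 2. Between HD and RM, 3 higher became 2 with CPM over all reads and 1 with a pseudocount of 5. They became 0 with CPM outside RNA5-8S5, median-ratio, TMM and a threshold of 2. The 3 lower became 2 with CPM over all reads and with a threshold of 2. They became 4 with CPM outside RNA5-8S5 and median-ratio, and 7 with TMM.

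Scaling moved the median of all genes between HD and LD from 1.86 to between 0.46 and 1.69, and among genes past the threshold the share higher in HD was 77.6% with TPM, 61.1% with TMM and 50.5% among the 9301 well-counted genes. For HD against RM it was 83.3%, 64.0% and 61.4%. With at least 10 reads in all 5 libraries, 3597 genes and 4 members were left, and the genes past the threshold numbered 408 with IL-6, 822 with IL-8, 1123 with RM and 2263 with HD against LD, in place of 3663, 5161, 5679 and 16876, by construction of the smaller set. In HD, 3 reads are 6.67 CPM outside RNA5-8S5, which limits IDH1 and FH most.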
